A study of Homo sapiens with 8 samples.

Results

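H3K27ac, the acetylated histone H3 that marks active promoters and enhancers, was examined around 8 genes of the ABC drug efflux transporters: ABCB1, ABCB6, ABCC1, ABCC2, ABCC3, ABCC4, ABCC5 and ABCG2. The cells were A549, a human lung adenocarcinoma line with a KEAP1 mutation, and the comparison asked which H3K27ac deposition depends on NRF2. One group of 3 ChIP-seq libraries came from cells given control siRNA, and the other group of 3 from cells given NRF2 siRNA. All cells were harvested 48 h after transfection, and all carried the KEAP1 mutation of the line. NRF2 siRNA replicate 1 used siRNA 28, and replicates 2 and 3 used siRNA 30. The libraries stand for 3 independent experiments in a single cell line, and an siRNA lowers its target in the whole culture without removing the gene. An H3K27ac peak at the NRF2 gene would not report its mRNA, so the knockdown itself could not be checked in these lists.

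ABC transporters are membrane pumps that spend ATP to carry substrates across a membrane, and several of them remove anticancer drugs from cells. NRF2 is a transcription factor that KEAP1 normally directs to degradation; when KEAP1 is mutated, NRF2 stays in the nucleus, pairs with a small MAF protein, and binds the antioxidant response element of genes for detoxification, glutathione metabolism and drug export. The core of that element is written TGACNNNGC, with TGAGNNNGC as a variant. The form TGACTCAGC also contains TGACTCA, the site of the AP-1 factors, so the letters alone do not tell which factor could bind.

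The peaks of all 6 libraries were merged where they overlapped into 49186 regions. Of these, 74 overlapped one of the 8 genes or the 20 kb on either side of it, and each gene had at least 3. ABCC4 had 23 regions, ABCC1 16, ABCC2 12, ABCG2 7, ABCC3 5, ABCB1 4, ABCC5 4 and ABCB6 3. A region within 1 kb of the gene's 5′ end was called its promoter region (6 regions), a region within 1 kb of another coding gene's 5′ end was kept apart (2 regions), and the other 66 were called distal. A region was tested when at least 3 of the 6 libraries had a peak in it, which held for 47 of the 74 regions. Of the 27 regions that were not tested, 17 had a peak in a single library, and that library was control replicate 3, the longest list, for 14 of them.

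The sequences below are shown because an exact form of the 9-base element stood inside 4 of the 8 regions called lower, and because it also stood in promoter regions that did not pass the test. They were read from the GRCh37 (hg19) sequence, 5′ to 3′ on the strand that carries the element, with the 9 bases in capitals. In the regions called lower, the exact form TGACTCAGC occurred at these places:
ABCB6, intron, chr2:220082655-220082695, plus strand: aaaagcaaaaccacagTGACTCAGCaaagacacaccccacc
ABCC2, upstream, chr10:101539714-101539754, minus strand: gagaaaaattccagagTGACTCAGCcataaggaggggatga
ABCC5, intron, chr3:183724133-183724173, minus strand: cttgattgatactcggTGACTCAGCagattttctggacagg
ABCG2, intron, chr4:89099608-89099648, plus strand: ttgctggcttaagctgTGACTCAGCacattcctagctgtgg

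In promoter regions that were not called, the same letters occurred at these places:
ABCC1, upstream, chr16:16042920-16042960, plus strand: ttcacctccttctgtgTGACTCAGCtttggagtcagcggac
ABCC3, intron, chr17:48718246-48718286, minus strand: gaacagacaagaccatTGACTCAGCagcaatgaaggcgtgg

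The other 4 regions called lower held no exact form, and for 3 of them the core nearest to the middle was as follows:
ABCC1, intron, chr16:16162806-16162846, plus strand: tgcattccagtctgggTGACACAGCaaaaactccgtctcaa
ABCG2, intron, chr4:89029103-89029143, minus strand: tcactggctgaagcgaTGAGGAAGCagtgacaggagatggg
ABCG2, intron, chr4:89114263-89114303, minus strand: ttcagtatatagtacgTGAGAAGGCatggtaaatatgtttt

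The flanks of the ABCC1 window with TGACACAGC are letters found in Alu repeats, a common mobile element of the human genome.

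Of the 47 tested regions, 8 were called lower and 2 were called higher with NRF2 siRNA. Regions were ranked within each library by their highest fold enrichment over background, the ranks were turned into normal scores, and the scores were compared with limma over all 32673 tested regions of the genome (adjusted p under 0.05). Over all tested regions 3.39% were called lower and 2.01% higher. With the replicate number as a block the transporter counts were again 8 and 2, but over all regions the shares rose to 6.62% lower and 5.72% higher, and 2 higher calls of 47 are then not above the background. Of the 10 calls, 2 lower (1 in ABCC1, 1 in ABCC5) and 1 higher (in ABCC4) had peaks in a single group and entered the test only through the group in which they were high, so their calls give no support of their own; the other 6 lower and 1 higher had peaks in both groups. The lower calls were the promoter regions of ABCB6 and ABCC2 and 6 distal regions, namely 3 in ABCG2, 2 in ABCC1 and 1 in ABCC5. The higher calls were 1 distal region in ABCC4 and 1 in ABCC5. All 8 lower calls fell in each of the 3 same-numbered pairs, and both higher calls rose in each of them. In the 8 lower calls the groups did not overlap, so a fall in each pair adds no support of its own. The counts depended on single libraries. Without control replicate 2 limma called 0 lower and 0 higher (0 also over the whole table). Unadjusted limma p-values under 0.05 were then found in 13 of the 47 regions (14 when no library was left out). Over all 32673 tested regions they were found in 6033 (7361 when no library was left out). Without control replicate 3 there were 1 lower and 0 higher, and without NRF2 siRNA replicate 2 there were 2 lower and 0 higher, while over all regions of the genome the lower calls fell from 1108 to at most 122. One of the 2 higher calls was lost without control replicate 1, and 1 without NRF2 siRNA replicate 3. The score changes of the 8 lower regions stayed negative, and those of the 2 higher regions stayed positive, whichever library was left out. For the 8 lower regions this too goes with groups that did not overlap, and is no separate support.

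**Figure D1:**
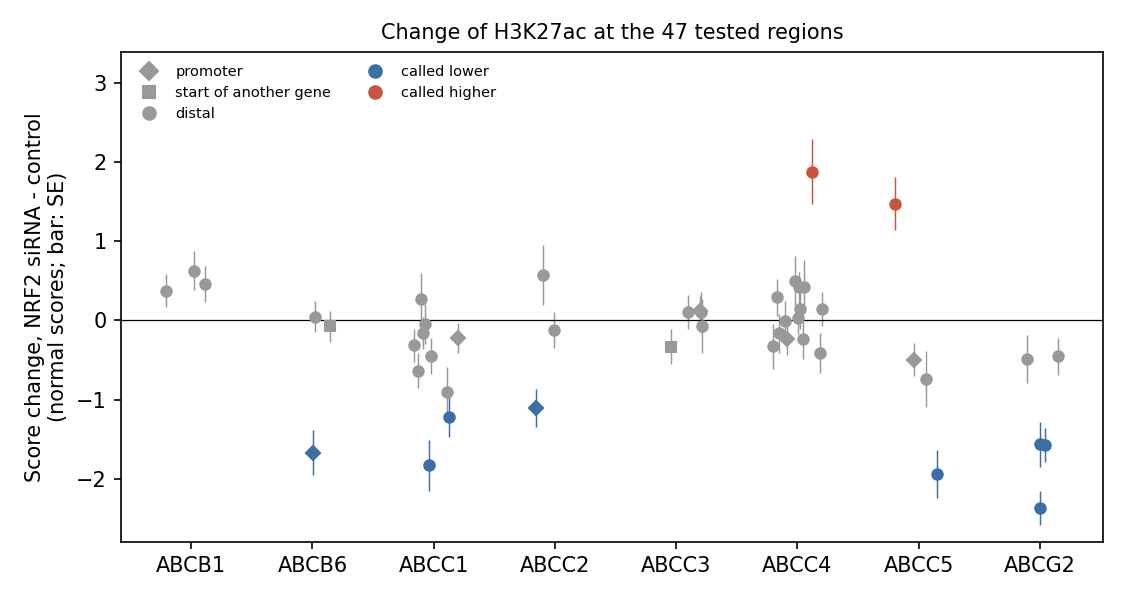
Each point is 1 of the 47 tested regions, placed by gene, with its score change (NRF2 siRNA minus control, in normal score units) and bars of 1 SE from limma. Diamonds are promoter regions, squares regions at another gene's start and circles distal regions; the 8 blue points were called lower and the 2 red points higher. All 5 tested ABCG2 regions lie below 0 and all 3 tested ABCB1 regions lie above it.

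The direction of change differed from gene to gene. Of the 47 score changes 29 were negative and 18 positive, with a median of -0.16, against a median of 0.02 over all tested regions. All 5 tested ABCG2 regions and 9 of 10 ABCC1 regions had negative changes. All 3 tested ABCB1 regions and 8 of 14 ABCC4 regions had positive changes, of which only the single ABCC4 call passed the test. Regions without a peak in either replicate 1 library gained 0.251 in that pair from the score they share. These included the ABCB1 regions chr7:87193083-87196093 and chr7:87237143-87238983, which also rose in pairs 2 and 3, and ABCC4 regions of either sign. The ABCC4 region chr13:95788894-95791364 counts as positive (0.028), with -0.199 in pair 2 and 0.033 in pair 3. The ABCC4 count of positive changes thus rests in part on that shared score, as do the sizes of those ABCB1 changes. Percentiles of the 2 groups did not overlap in 15 tested regions that were lower with NRF2 siRNA and in 2 that were higher. Of these, 4 lower and 1 higher had peaks in a single group and entered the test only through it, so their separation was fixed in advance. Over all tested regions, such regions included, 12.8% were lower in this way and 7.39% higher.

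At the promoters, H3K27ac fell at ABCB6 and ABCC2 and did not pass the test at ABCC1, ABCC3, ABCC4 and ABCC5. Of all tested regions that hold the 5′ end of a coding gene, 0.862% were called lower, and 2 of the 6 transporter promoters were. The values below are percentiles, which give the place of a region's highest fold enrichment among all peaks of the same library, 100 being the strongest. Among the control libraries the promoters stood in the order ABCC2 (99.99 ± 0.000923, SD, n = 3), ABCC3 (99.2 ± 0.279), ABCB6 (97.7 ± 0.945), ABCC1 (96.1 ± 0.660), ABCC4 (94.8 ± 2.60) and ABCC5 (45.9 ± 10.5). The ranges of ABCC1 (95.5 to 96.8) and ABCC4 (92.0 to 97.0) overlapped in the control libraries, as did those of ABCB6 (96.6 to 98.3) and ABCC1. With NRF2 siRNA ABCB6 dropped to 60.7 ± 11.6, below ABCC1 (93.2 ± 1.77) and ABCC4 (90.7 ± 5.59).

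**Figure D2:**
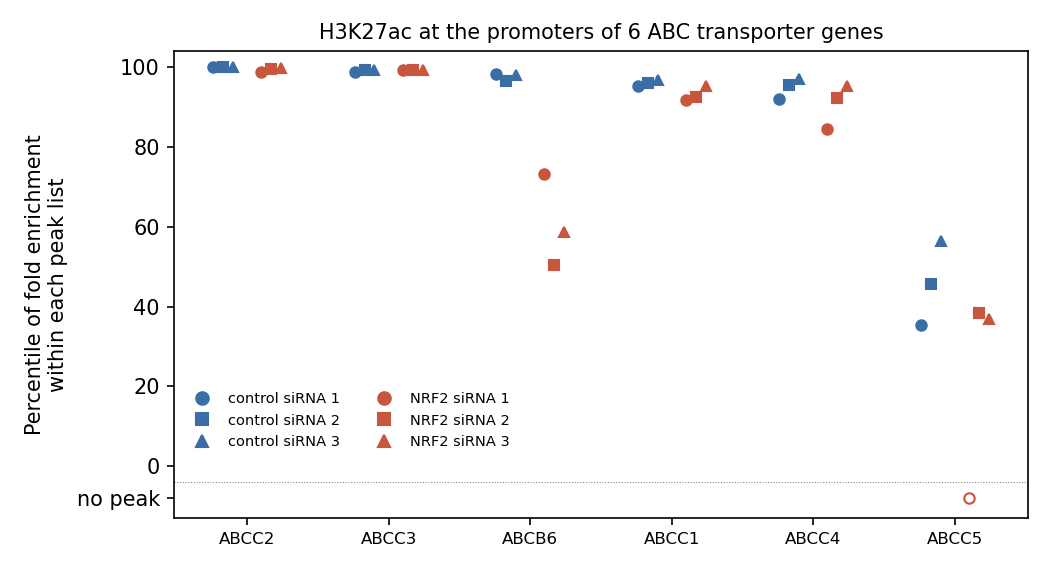
Percentile of the promoter region's fold enrichment within each library's peak list, for the 6 transporter genes with a promoter region, ordered by the control mean. Blue marks are the 3 control siRNA and red marks the 3 NRF2 siRNA libraries, an open mark means no peak. At ABCB6 the control libraries sit between 96.6 and 98.3 and the NRF2 siRNA libraries between 50.3 and 73.2.

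ABCB6, a porphyrin transporter of intracellular membranes, had the larger change of the 2 promoters called lower. Its promoter region (chr2:220081256-220084141) covered the 5′ end and the first part of the gene and also reached into the ATG9A gene beyond it and a readthrough transcript of both genes. The percentiles were 98.3, 96.6 and 98.2 in the control libraries. They were 73.2, 50.3 and 58.7 in the NRF2 siRNA libraries, so the groups lay far apart. The authors' fold enrichment was 12.9, 11.7 and 16.1 in control and 4.84, 4.14 and 4.503 in NRF2 siRNA libraries. Fold values are not on 1 scale across lists: at the ABCC3 promoter control replicate 1 had a fold of 13.95 at percentile 98.9, and NRF2 siRNA replicate 1 had 11.6 at the higher percentile of 99.5. The score changed by -1.67 ± 0.28 (SE; limma adjusted p = 0.0156). The call was lost without control replicate 2 (adjusted p = 0.0626), control replicate 3 (adjusted p = 0.0735) or NRF2 siRNA replicate 2 (adjusted p = 0.0787). The 2 other ABCB6 regions, 1 beyond the 3′ end of the gene and 1 at the start of a neighbouring gene, had score changes of 0.05 (adjusted p = 0.917) and -0.07 (adjusted p = 0.865). The region beyond the 3′ end was counted as distal, but it overlaps ZFAND2B and holds the start of a coding transcript of another gene.

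Of 20176 coding genes, 27.7% held a core on either strand in the 300 bases before the 5′ end. Among the 8 transporter genes ABCB6, ABCC1 and ABCC4 held 1 each, and the others 0. The exact form in the ABCB6 promoter region lay outside these 300 bases, in an intron 1041 bases into the gene and 24 bases from the middle of the acetylated region.

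ABCC2, which exports glutathione and glucuronide conjugates at the apical membrane of liver and kidney cells, had one of the strongest regions of every list. The region was long, 23.0 kb (chr10:101533344-101556319), and ran from upstream of the gene into it. Its percentile was 99.99 in each of the 3 control libraries and 98.9, 99.6 and 99.93 in the NRF2 siRNA libraries. The groups did not overlap, but all 6 values lay near the top of the lists, where percentiles differ little. The fold enrichment, with the same limit on its scale as at ABCB6, was 24.4, 28.4 and 33.0 in control and 10.6, 18.1 and 23.1 in NRF2 siRNA libraries. The score changed by -1.11 ± 0.24 (SE; limma adjusted p = 0.0318). The call was lost without control replicate 1 (adjusted p = 0.0693), 2 (0.100) or 3 (0.105), or without NRF2 siRNA replicate 2 (0.133). The core TGACTCAGC printed above lay at position -2663 from the gene's 5′ end, counted in bases, and 5098 bases from the middle of the region. Of the 11 distal ABCC2 regions 9 had a peak in 1 or 2 libraries, all of them control libraries and each time including control replicate 3, the longest list, and were not tested. The region 52.2 kb into the gene had percentiles of 44.3, 32.1 and 23.4 in control and 61.4, 58.5 and 39.5 in NRF2 siRNA libraries, which overlapped (score change 0.58 ± 0.38, adjusted p = 0.411).

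The promoter regions of the other 4 genes did not pass the test. ABCC1, the exporter of glutathione conjugates such as leukotriene C4, stood at 95.5, 96.2 and 96.8 in control and 91.9, 92.6 and 95.3 in NRF2 siRNA libraries, a small but complete separation (score change -0.22 ± 0.19, adjusted p = 0.546). It holds the element TGACTCAGC at position -55 from the gene's 5′ end. ABCC3, which exports glucuronides at the basolateral membrane, stood at 98.9, 99.3 and 99.4 in control and 99.5, 99.4 and 99.3 in NRF2 siRNA libraries (score change 0.12 ± 0.19, adjusted p = 0.780). ABCC4, which exports cyclic nucleotides and prostaglandins, stood at 92.0, 95.6 and 97.0 in control and 84.4, 92.3 and 95.3 in NRF2 siRNA libraries (score change -0.24 ± 0.20, adjusted p = 0.542). ABCC5, an exporter of cyclic nucleotides and nucleotide analogues, was the weakest, at 35.4, 45.7 and 56.5 in control, no peak in NRF2 siRNA replicate 1, and 38.3 and 36.8 in replicates 2 and 3 (score change -0.49 ± 0.21, adjusted p = 0.212). The groups overlapped at ABCC3, ABCC4 and ABCC5. The median score change of the 6 promoters was -0.37, against -0.06 over all tested regions with a coding start.

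The ABCC1 promoter is shown because it carries the exact element close to the start of the gene and yet did not pass the test. It covers chr16:16042695-16042994, plus strand, the 300 bases before the gene's 5′ end, with the element in capitals:
ABCC1 promoter: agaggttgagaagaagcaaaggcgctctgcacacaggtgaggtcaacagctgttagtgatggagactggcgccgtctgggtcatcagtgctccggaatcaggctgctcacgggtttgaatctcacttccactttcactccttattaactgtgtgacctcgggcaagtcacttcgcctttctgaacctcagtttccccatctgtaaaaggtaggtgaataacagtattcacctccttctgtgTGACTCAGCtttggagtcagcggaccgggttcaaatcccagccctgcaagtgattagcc

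ABCB1 and ABCG2 had no peak within 1 kb of the gene's annotated 5′ end in any of the 6 libraries. ABCB1 encodes P-glycoprotein, the best known exporter of anticancer drugs, and ABCG2 encodes the breast cancer resistance protein, which works as a dimer. A region inside ABCG2 (chr4:89078873-89082162) holds the start of another coding transcript of the gene, and was counted as distal. It stood at 71.9, 71.0 and 79.4 in control and 55.7, 58.6 and 50.9 in NRF2 siRNA libraries, without overlap (score change -0.46 ± 0.24, adjusted p = 0.294).

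ABCG2 had the most regions called lower of the 8 genes. Among distal regions of the whole genome 4.28% were called lower, and among the 39 tested distal transporter regions 6 were, 2 of them with no peak in any NRF2 siRNA library. Of these, 3 regions lay in ABCG2, and the median score change of its 5 tested regions was -1.57. The largest fall of all 47 regions was at chr4:89098737-89100758, an intron 53.0 kb into the gene. Its percentiles were 86.4, 94.1 and 97.0 in the control libraries. With NRF2 siRNA there was no peak in replicate 1 and the percentiles were 19.5 and 23.8 in replicates 2 and 3. The region went from among the stronger peaks of the list to weak or not called, by -2.37 ± 0.22 in score (SE; limma adjusted p = 0.00628). Without control replicate 2 the adjusted p was 0.0504. Its exact element TGACTCAGC lay 120 bases from the region's middle.

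The strongest ABCG2 region was chr4:89024228-89034964, 123.2 kb into the gene. It stood at 99.5, 99.2 and 99.5 in control libraries. It stood at 59.5, 86.3 and 87.3 in NRF2 siRNA libraries (score change -1.58 ± 0.21, adjusted p = 0.00953). Replicate 1, the pair with siRNA 28, was the lowest of the 3, and the groups did not overlap. The call was lost without control replicate 2 (adjusted p = 0.0547) or 3 (0.0540). The region chr4:89110522-89118385, 38.3 kb into the gene, stood at 55.2, 70.4 and 55.3 in control libraries. With NRF2 siRNA a single library, replicate 3, had a peak there, at 6.65 (score change -1.57 ± 0.28, adjusted p = 0.0189). That call was lost without control replicate 2 (adjusted p = 0.0815) or 3 (0.0552), or NRF2 siRNA replicate 2 (0.0917) or 3 (0.0563). The fifth tested region, 86.4 kb into the gene, stood at 77.8, 69.3 and 57.5 in control and 37.2, 54.9 and 40.7 in NRF2 siRNA libraries (score change -0.49 ± 0.30, adjusted p = 0.392).

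**Figure D3:**
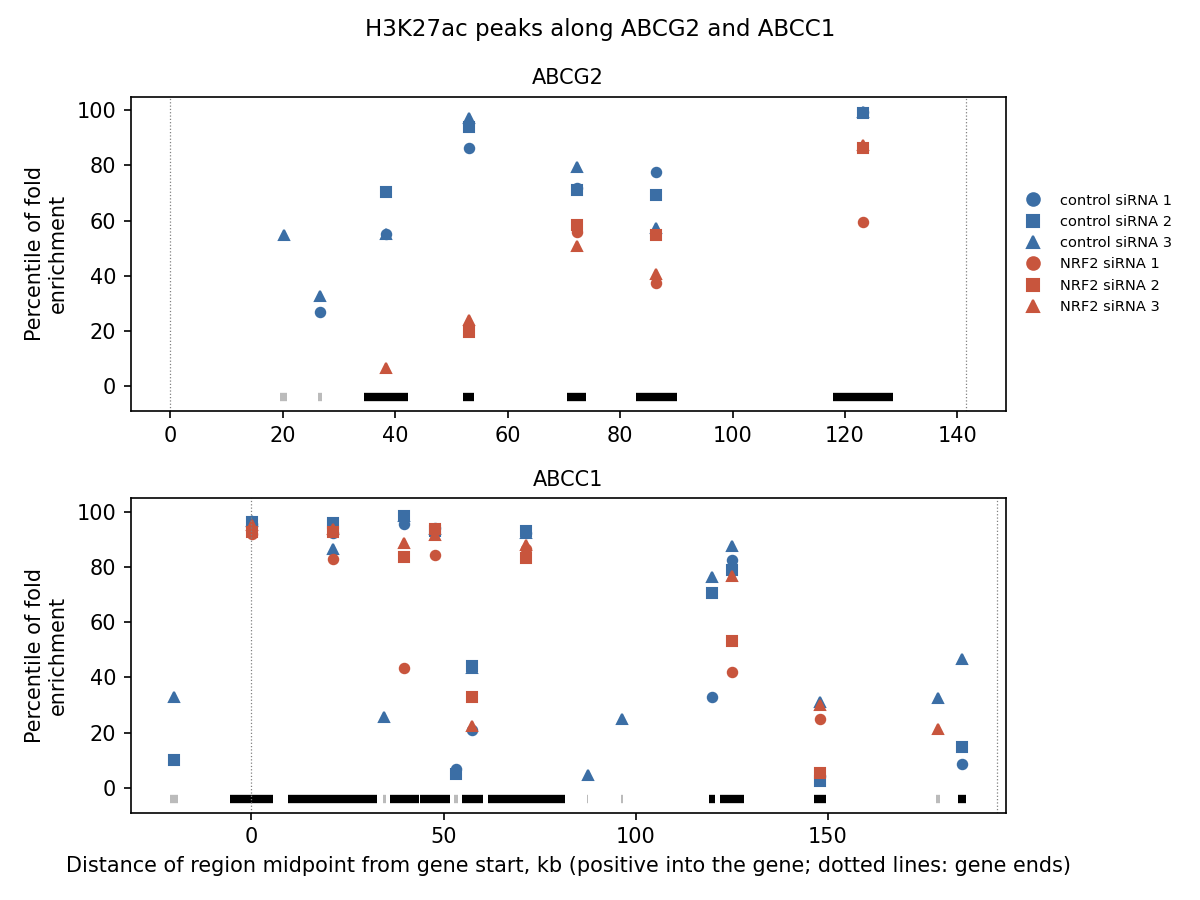
Percentile of each region's fold enrichment along ABCG2 and ABCC1, by the distance in kb of the region's midpoint from the gene start, with dotted lines at the gene's ends and bars at the foot for the extent of the regions (black for tested, grey for regions called in 1 or 2 libraries). Blue marks are control siRNA and red marks NRF2 siRNA libraries, and a library with no peak has no mark. In ABCG2 the control marks lie above the NRF2 siRNA marks at each of the 5 tested regions, and in ABCC1 the marks at the gene start lie close together.

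In ABCC1 the promoter region did not pass the test, while 2 of 9 tested distal regions were called lower. The region chr16:16079053-16086586, 39.8 kb into the gene, stood at 95.7, 98.5 and 98.6 in control libraries. It stood at 43.5, 83.5 and 88.7 in NRF2 siRNA libraries (score change -1.22 ± 0.25, adjusted p = 0.0299). The NRF2 siRNA values were all lower, replicate 1 by the most. The call was lost without control replicate 2 (adjusted p = 0.107) or 3 (0.113) or NRF2 siRNA replicate 2 (0.0985), and where peaks up to 1 kb apart were merged, which joined it to the next region (score change -0.67, adjusted p = 0.0934). That neighbour, 47.7 kb into the gene, was the distal ABCC1 region with the highest mean percentile, at 94.2, 93.1 and 93.6 in control and 84.4, 93.7 and 91.6 in NRF2 siRNA libraries, with overlap (score change -0.16 ± 0.20, adjusted p = 0.691). The second call, chr16:16162169-16163678, was in an intron 120 kb into the gene. It stood at 33.0, 70.7 and 76.4 in control libraries and had no peak in any NRF2 siRNA library (score change -1.83 ± 0.32, adjusted p = 0.0178). That call was lost without control replicate 2 (adjusted p = 0.0782) or 3 (0.0857) or NRF2 siRNA replicate 2 (0.0838). Near the gene's end, a region 185 kb in stood at 8.52, 14.7 and 46.6 in control libraries and had no peak with NRF2 siRNA, and did not pass the test with all libraries (score change -0.90 ± 0.31, adjusted p = 0.125), but did without NRF2 siRNA replicate 1 (-1.23, adjusted p = 0.0251).

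ABCC5 held a call in each direction. The region chr3:183723497-183724970, in an intron 11.5 kb into the gene, stood at 65.2, 58.7 and 76.5 in control libraries and had no peak in the NRF2 siRNA libraries (score change -1.94 ± 0.30, adjusted p = 0.0129). Its element TGACTCAGC lay 81 bases from the middle and overlapped an exon of ABCC5-AS1, an antisense transcript. The call was lost without control replicate 2 (adjusted p = 0.0557) or 3 (0.0659) or NRF2 siRNA replicate 2 (0.0691), and with the q-value limited to 1e-05 (score change -1.19, adjusted p = 0.128). The region chr3:183642320-183643587, 92.8 kb into the gene, was higher with NRF2 siRNA. In control libraries only replicate 2 had a peak there, at 15.8, and the NRF2 siRNA libraries stood at 9.36, 65.1 and 60.3, so the groups overlapped through replicate 1 (score change 1.48 ± 0.34, adjusted p = 0.0395). Leaving out any library other than NRF2 siRNA replicate 1 ended this call (adjusted p between 0.0593 and 0.152). A region of 0.822 kb, 58.5 kb into ABCC5, stood at 25.6, 4.75 and 30.2 in control libraries, had no peak with NRF2 siRNA and did not pass the test (score change -0.74 ± 0.35, adjusted p = 0.261).

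**Figure D4:**
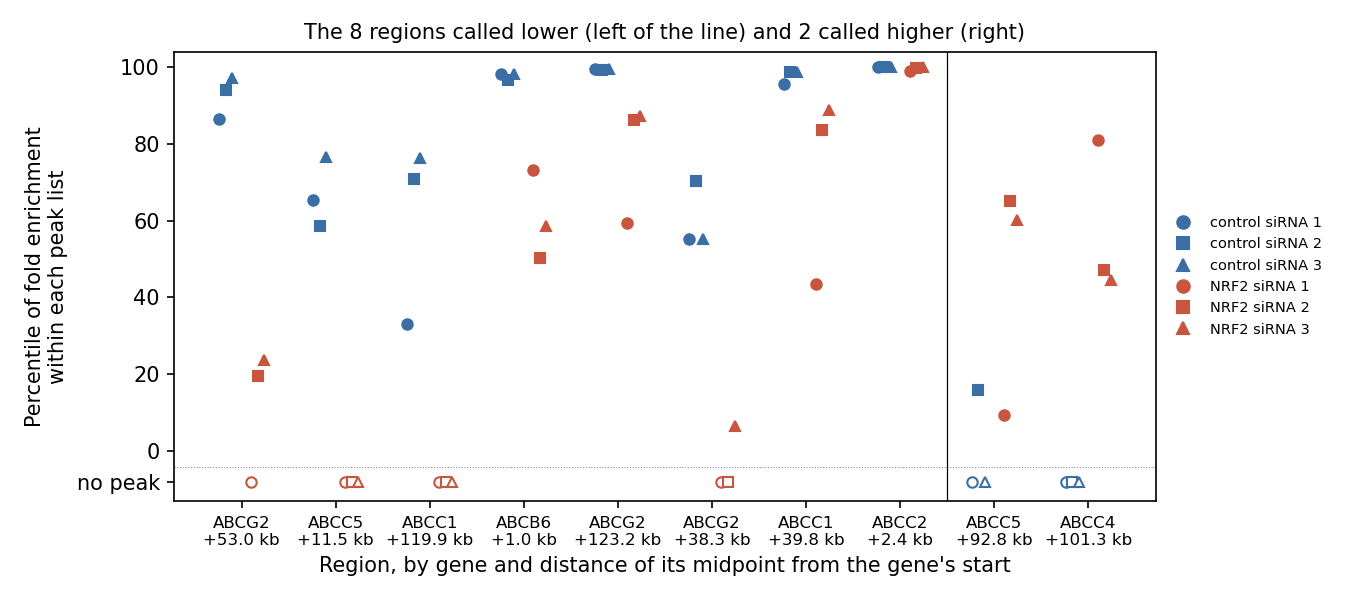
Percentile of fold enrichment in each library for the 10 transporter regions past the threshold, named by gene and by the distance in kb of the region's midpoint from the gene start, in order of score change. Blue marks are control siRNA, red marks NRF2 siRNA libraries, and open marks on the lower line have no peak. In the 8 regions left of the line each control mark is above each NRF2 siRNA mark.

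In ABCC4 the call was a rise. The region chr13:95851174-95853712, in an intron 101.3 kb into the gene, had no peak in the control libraries and stood at 81.1, 47.1 and 44.5 in the NRF2 siRNA libraries (score change 1.88 ± 0.41, adjusted p = 0.0346). It was lost without control replicate 2 (adjusted p = 0.110) or 3 (0.135) or NRF2 siRNA replicate 2 (0.0967), and when all lists were cut to equal length (score change 1.33, adjusted p = 0.0903). The other 12 tested distal ABCC4 regions lay between -0.41 and 0.50 in score change and none passed. The one with the highest mean percentile, 200 kb into the gene, stood at 98.8, 99.8 and 98.7 in control and 96.8, 99.4 and 99.1 in NRF2 siRNA libraries (score change -0.16 ± 0.25, adjusted p = 0.757).

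ABCB1 and ABCC3 had no call. The best ABCB1 region, 143 kb into the gene, stood at 40.1, 54.8 and 53.6 in control and 57.1, 60.1 and 67.3 in NRF2 siRNA libraries, higher without overlap but not past the test (score change 0.38 ± 0.21, adjusted p = 0.326). A second, 148 kb in, had a peak in control replicate 3 alone, at 1.44, and in NRF2 siRNA replicates 2 and 3, at 19.8 and 18.5 (score change 0.63 ± 0.25, adjusted p = 0.174). The 3 distal ABCC3 regions changed by -0.07 to 0.10 in score, and the strongest of them, 55.7 kb into the gene, stood at 97.9, 98.3 and 98.5 in control and 99.2, 98.1 and 98.1 in NRF2 siRNA libraries (adjusted p = 0.828). This strongest region overlaps ANKRD40 and holds the start of a coding transcript of another gene. The region 28.5 kb in holds the start of another coding transcript of ABCC3. Both were counted as distal. The median score change of the 39 tested distal transporter regions was -0.07, against 0.06 over all tested distal regions.

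Of the 74 regions, 4 had a peak in all 3 control and in 0 NRF2 siRNA libraries, 2 in ABCC1 and 2 in ABCC5, and 1 region, in ABCC4, showed the reverse. Over all 49186 regions 2.27% were of the first kind and 0.83% of the second. Each of the 5 entered the test only through the group in which it had peaks, and 3 of them are among the 10 calls.

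The length of chromatin under peaks was measured as kb near a gene per Mb under peaks in the whole list, so as to allow for longer lists. It was summed over the same peaks as the calls, with regions that were not tested included, and so is not separate support. ABCG2 had 0.362, 0.272 and 0.277 kb per Mb in control and 0.199, 0.113 and 0.107 in NRF2 siRNA libraries, and in plain length 23.4, 23.1 and 31.4 kb against 9.20, 9.60 and 11.3 kb. ABCC1 had 0.924, 0.766 and 0.794 against 0.565, 0.460 and 0.517 kb per Mb. ABCC5 had 0.0355, 0.0427 and 0.0255 against 0.0157, 0.0231 and 0.0191 kb per Mb. In these 3 genes each NRF2 siRNA library was below each control library, in kb per Mb and in kb alike. Of the 16640 coding genes with a region, 9.75% showed such a drop in kb per Mb and 6.13% such a rise, which ABCC4 showed (0.844, 0.899 and 0.908 against 1.08, 0.919 and 0.963 kb per Mb). In plain kb the ABCC4 groups overlapped (54.6 to 103 kb in control, 50.2 to 102 kb with NRF2 siRNA). ABCB1, ABCB6, ABCC2 and ABCC3 overlapped in kb per Mb. In plain kb ABCB6 (4.94, 5.001 and 5.74 against 3.801, 3.94 and 4.73 kb) and ABCC2 (21.1, 27.1 and 44.3 against 15.9, 18.2 and 20.9 kb) were also lower in each NRF2 siRNA library. The whole lists covered 64.7, 85.0 and 113.3 Mb in control and 46.3, 84.8 and 105.7 Mb in NRF2 siRNA replicates 1 to 3. The share of all coding genes with such a drop in plain kb was not counted, so the drops in plain kb have no background beside them.

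**Figure D5:**
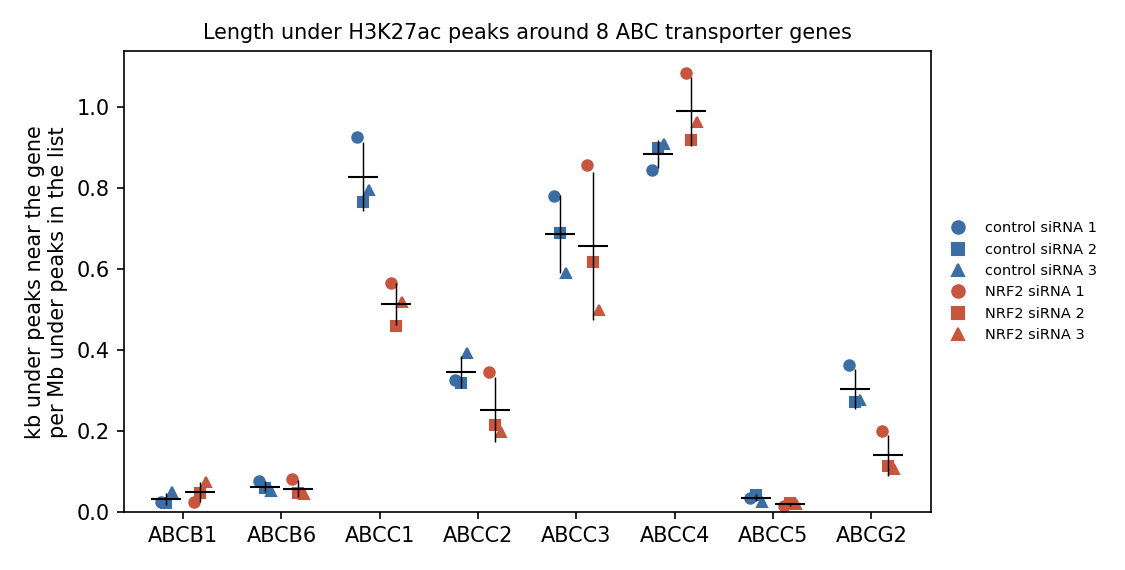
Length under peaks in and within 20 kb of each transporter gene, in kb per Mb under peaks in the whole list, on a linear axis from 0. Points are libraries (blue control siRNA, red NRF2 siRNA), the horizontal line is the mean and the bar 1 SD (n = 3). ABCG2, ABCC1 and ABCC5 are lower in every NRF2 siRNA library.

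The exact form TGACTCAGC stood in 4 of the 8 transporter regions called lower, 0 of the 2 called higher and 4 of the 37 not called. Over the whole genome 10.5% of tested regions held it, 51.0% of those called lower and 6.54% of those called higher. The share among the lower transporter regions lay near that of all lower regions, but the transporter regions were longer (median 5.21 kb against 2.33 kb). Per kb the exact form occurred 0.0702 times in the lower transporter regions and 0.200 times in all lower regions. The form was chosen after its matches had been seen. The 2 regions called higher held 3 cores each, and their sequences are not shown. The broader core, TGACNNNGC or TGAGNNNGC on either strand, stood in all 8 lower regions and 35 of the 37 not called, and in 85.4% of all tested regions. Among merged regions within 10% of its length, the exact form stood in 8.77% for the ABCB6 promoter region, 42.8% for ABCC2, 5.998% for ABCC5 and 6.72% for the ABCG2 intron region. A match in letters describes the sequence and was not tested for binding.

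Other ABC genes served for comparison. Of 40 other human ABC genes, 21 had a tested promoter region, 12 with negative and 9 with positive changes and a median of -0.04. Limma called 0 of them lower and 0 higher, and 2 had an unadjusted p under 0.05. Of all tested regions with a coding start 0.862% were called lower, so 0 lower calls of 21 do not set these genes apart. With the replicate block TAP2, a subunit of the peptide transporter of antigen presentation, was called higher (score change 0.82, adjusted p = 0.277 without and 0.0368 with the block). With the block 5.72% of all tested regions were called higher, so 1 higher call of 21 is not above the background.

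siRNA 28 was used in a single pair, which leaves little room to compare the 2 NRF2 siRNAs. The 10 called regions moved the same way in pair 1 (siRNA 28) as in pairs 2 and 3 (siRNA 30). They were called from all 3 pairs together, so this is no separate support. Of the 47 tested transporter regions, 27 had the same sign in the 3 pairs. The same share over all tested regions was not counted. For regions without a peak in either replicate 1 library the sign in pair 1 was set by the score they share. In limma, the change in pair 1 minus that in the other pairs passed the adjusted threshold in 0 of 32673 regions (3871 at an unadjusted p under 0.05) and in 0 of 47 transporter regions (4 at an unadjusted p under 0.05), which does not show that the siRNAs act alike. Peak names of replicate 1 lack a flow cell identifier that those of replicates 2 and 3 carry, so siRNA and sequencing batch cannot be told apart. The epithelial markers KRT8, KRT18 and EPCAM had a promoter peak in all 6 libraries and KRT19 in 5, while the blood cell markers PTPRC and CD3E had one in 0. KRT8 and KRT18 had the same values in the fit (score change -0.095, limma adjusted p = 0.824), so they count as 1 region. KRT19 itself was called higher with NRF2 siRNA (score change 1.97, adjusted p = 0.00677).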

How the data were processed

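H3K27ac was measured by ChIP-seq in 3 control siRNA and 3 NRF2 siRNA libraries of A549 cells. The 2 input libraries were not analysed here. Per the methods of the study and the submitters' processing notes, the authors mapped single-end reads with Bowtie2 2.2.6 (build hg19), used SAMtools to filter reads on mapping quality, ran MACS2 2.1.0.20151222 on each library separately for broad peaks, and dropped peaks in the ENCODE blacklist. Each deposited list gives, per peak, an integer display score, a fold enrichment over background (a ratio), and −log10 values of the p-value and the q-value. Which background each list used is not given in the sources used here. The deposited score was not used, and the −log10 q-value only in an alternative. The lists held 27941, 34747 and 41571 peaks in control replicates 1 to 3 and 23885, 34986 and 39108 in NRF2 siRNA replicates 1 to 3. They hold no read counts, which leaves no interval based on depth, and a longer list can come from a deeper library. The study reports fewer mapped reads for the replicate 1 libraries.

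Peaks overlapping by at least 1 base were merged over all chromosomes and contigs. GENCODE genes lifted to GRCh37 gave gene bodies, 5′ ends and exons; of 34 chromosomes and contigs with peaks, 24 were found in the GRCh37 sequence, 0 regions ran past an end and 32 lay on the others. A region's percentile is that of its strongest peak by fold enrichment within the library's list. For the test, regions with a peak in at least 3 libraries were ranked in each library by highest fold enrichment, regions without a peak sharing the lowest rank, and ranks became normal scores. Scores were compared with limma 3.58.1 (lmFit, eBayes; R 4.3.3; Benjamini-Hochberg adjustment over all 32673 regions), and the step was tested on simulated data. Ranks put lists of unequal length on 1 scale only in part, and cannot show a change shared by all regions. The score shared by regions without a peak depends on how many such regions a library has. A region without a peak in either replicate 1 library thus gained 0.251 in that pair, as did the ABCB1 region 148 kb into the gene. Other steps used Python 3.11.15, pandas 2.3.3 and scipy 1.17.1.

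Libraries were paired by the numbers of the sample titles, and the study calls them independent experiments. Deviations from the group mean over the tested regions were correlated within each pair of equal number (r = 0.398, 0.199 and 0.363). Libraries of unlike number were not correlated, so these values do not show that the numbers pair the libraries. The main fit did not use the pairing, and the replicate block did. Regions described in full were each gene's promoter and its best distal region by mean percentile, every region past the threshold, every region with peaks in all 3 libraries of a single group alone, and the 3 largest falls and rises. The genes, lists and rules were chosen with earlier results of these data known. A fit of pair 1 against pairs 2 and 3 compared the siRNAs. Alternatives were a replicate block, equal list lengths, a q-value of at most 1e-05, other filters on calls, a length-weighted mean fold, other eBayes options, merging within 1 kb, windows of 5 and 100 kb, any coding transcript start as promoter, and leaving out each library. A list of other efflux genes and the element window of 1 region called lower are not reported here.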

Additional observations from a re-analysis of the deposited data

How the results depend on the processing

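The median score change of the transporter promoters stayed negative in all alternatives, between -0.46 and -0.28. That of the distal regions lay between -0.18 and -0.04, and changed sign to 0.04 without control replicate 2, a move within the spread of the 3 pair medians (SD 0.182). With the replicate block 8 regions were called lower and 2 higher, as without it (6.62% and 5.72% of all tested regions, 2164 and 1868 calls, against 1108 and 657), and the block changed no other call reported here than that of TAP2. The counts lower and higher were 5 and 0 under the q-value limit of 1e-05 (2.56% and 1.495% of all tested regions), 4 and 0 over regions called in all 6 libraries, which tests fewer regions (2.19% and 2.02%), and 8 and 1 with equal list lengths (5.70% and 5.11%); leaving out 1 library gave 0 to 9 lower and 0 to 2 higher. Regions with peaks in 3 control and 0 NRF2 siRNA libraries numbered 2 under that limit, and the reverse kind 0 under it and 2 with equal list lengths. With 1 library left out the rule was looser, with peaks in all remaining libraries of 1 group and in 0 of the other. By that rule there were 4 to 8 regions with peaks in control libraries alone and 1 to 2 of the reverse kind. The share of all merged regions was not counted under these settings. The cause of these differences was not tested. A few uncalled regions changed sign: the best distal ABCB6 region to -0.11 over regions called in all 6 libraries and to between -0.023 and 0.110 with 1 library left out, the best distal ABCC3 region to between -0.062 and 0.200, and the best distal ABCC4 region to between -0.313 and 0.034. The counts of 9 lower and 2 higher from the fit that joined the replicate block to lists of equal length (8.81% and 9.28% of all tested regions), the distal median from that fit, and the promoter median after merging within 1 kb were added after seeing the data. Read depth was not used here, and a region without a peak may hold acetylation below the limit of the peak caller.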
